A study of Mus musculus with 2 samples.

Results

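The genes described here encode the receptors of osteopontin, the secreted protein made from Spp1: the hyaluronan receptor CD44 and the integrin chains αv, β1, β3, β5, α4, α5 and α9. They were chosen by symbol, and all 8 (Cd44, Itgav, Itgb1, Itgb3, Itgb5, Itga4, Itga5 and Itga9) were found among the 55357 genes listed for both libraries. Single-cell RNA sequencing with 3′ tags was done on live CD45+ (7-AAD-) cells sorted from MC38 tumours, which grow from a mouse colon adenocarcinoma line. One library came from control SPP1fl/fl mice, whose Spp1 gene is flanked by loxP sites, and 1 from SPP1fl/fl-Lyz2-icre mice, which carry the same floxed gene and in addition a Cre driven from Lyz2, a gene of macrophages, monocytes and neutrophils. The sources used here do not give the age of the mice, how many were pooled or which exons lie between the loxP sites. Both libraries held cells with Xist and cells with Y-linked UMIs, so each pooled mice of both sexes, 59.6% female and 20.6% male cells in the control library and 55.8% and 17.6% in the Lyz2-icre library. With 1 library per genotype no difference between genotypes has a replicate check, no p-value is given, and all intervals below are 95% intervals that cover counting error only. Where no cell held a UMI, the share allowed is given as 3 cells of the total, which is not the upper bound of such an interval.

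Osteopontin is bound in more than one way. Integrins of the αv family (with β1, β3 or β5) and α5β1 read an arginine-glycine-aspartate motif. The residues that follow it are read by α4β1 and α9β1, by α9β1 once a protease such as thrombin has cut the protein there. CD44, best known as the receptor that holds leukocytes to hyaluronan and as a mark of activated and memory T cells, has been reported as a further osteopontin receptor. An integrin works only as a pair of 1 α and 1 β chain, so a cell needs RNA of both to make the receptor.

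The stretch of Spp1 that carries both integrin sites is shown because it is what the receptors below bind. It is 54 bases of coding sequence, codons 141 to 158 of 295, in exon 7 of the 8 exons of the longest coding transcript (GRCm38, the mm10 build, chr5:104439469-104439522, plus strand). The first 9 capitals are the arginine-glycine-aspartate codons, which occur 1 time in the coding sequence, and the other 21 capitals are the 7 codons that follow.
osteopontin: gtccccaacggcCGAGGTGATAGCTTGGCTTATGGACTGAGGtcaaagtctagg
The β chains differ in how they couple to the cell interior. Their short tails bind talin through an asparagine-proline-any-tyrosine motif, and 42 bases around the first such motif of each chain are shown to compare them, with the 4 codons of the motif in capitals. Each stretch crosses an exon boundary, and all lie on the plus strand.
Itgb1 (chr8:128726169-128732046): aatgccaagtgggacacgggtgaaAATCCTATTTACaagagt
Itgb3 (chr11:104665615-104667103): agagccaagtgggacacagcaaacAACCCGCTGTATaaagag
Itgb5 (chr16:33947864-33948680): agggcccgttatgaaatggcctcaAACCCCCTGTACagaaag
Of the 14 codons, 9 encode the same residue in Itgb1 and Itgb3, 7 in Itgb3 and Itgb5, and 4 in Itgb1 and Itgb5. The last 60 codons hold 2 motifs of this form in Itgb1 and 1 each in Itgb3 and Itgb5.

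Cell types were set by marker gates on each cell's UMIs (unique molecular identifiers, 1 per captured RNA molecule), and 9 gates held at least 50 cells in both libraries. In control and Lyz2-icre respectively they held 5154 and 9540 macrophage-gated cells (C1q genes), 372 and 449 monocyte-gated, 145 and 56 neutrophil-gated, 106 and 95 cDC2-gated (type 2 conventional dendritic cells) and 152 and 105 migratory DC-gated (Ccr7, Fscn1). The remaining gates held 218 and 224 NK-gated, 248 and 313 CD8 T-gated, 86 and 70 Treg-gated (Foxp3) and 104 and 143 collagen-high cells. Cells that passed more than 1 gate (1204 and 1591) were set aside, with 550 and 853 of them passing both the macrophage and the monocyte gate. After cell filters the control library held 8724 cells and 88047097 UMIs, with a median of 9379.5 UMIs per cell, and the Lyz2-icre library 13915 cells and 98256831 UMIs, with a median of 6374. The 2 libraries shared 43 cell barcodes. Of marker genes that the gates did not use, 4 of 4 for macrophage- and monocyte-gated cells and 5 of 5 for neutrophil-, migratory DC-, NK- and Treg-gated and collagen-high cells ranked first or second among the 9 types in both libraries. For CD8 T-gated cells 4 of 5 did, and for cDC2-gated cells only 2 of 5. Ptprc, which encodes the CD45 used for the sort, stood at 18.0 and 21.7 CPM (UMIs of a gene per 1000000 UMIs of all cells of a gate) in the collagen-high cells and at no less than 206 in any other of the 9 types, so the collagen-high cells did not look like leukocytes and are named by their leading genes. RNA of 4 macrophage markers outside the gates (Apoe, Ms4a7, Adgre1, Mrc1) was found in the other gates. Whether it came from macrophages or from the gated cells themselves was not tested. Apoe made up most of the sum, with 11057 and 9695 of 12265 and 10793 CPM in macrophage-gated cells. The sum was 4.14% and 4.12% of the macrophage level in CD8 T-gated cells, 4.74% and 3.10% in NK-gated and 7.69% and 7.80% in Treg-gated cells. It was 8.73% and 11.2% in neutrophil-gated and 32.8% and 34.1% in monocyte-gated cells.

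The ligand's own RNA was lower in the myeloid gates of the Lyz2-icre library. Spp1 (chr5:104435118-104441050, plus strand) stood at 572 CPM in control and 4.52 in Lyz2-icre macrophage-gated cells, at 2886 and 13.9 in monocyte-gated cells and at 626 and 15.9 in neutrophil-gated cells (239 and 1 UMIs). It was also lower in cDC2-gated cells, at 136 and 29.2, and in migratory DC-gated cells, at 52.7 and 6.77. In lymphocytes it stood at 898 and 704 in NK-gated, 229 and 338 in CD8 T-gated and 77.8 and 291 in Treg-gated cells, and in collagen-high cells at 72.1 and 239.

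Levels below are in CPM, first in the control and then in the Lyz2-icre library. A 3′ tag counts each captured RNA once whatever its length, so levels were not divided by gene length, and the tags do not tell the splice forms of CD44 apart. Each receptor gene had its own ranking of cell types, and the type with the highest level was the same in both libraries for 7 of the 8 genes, the exception being Itgb1.

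**Figure D1:**
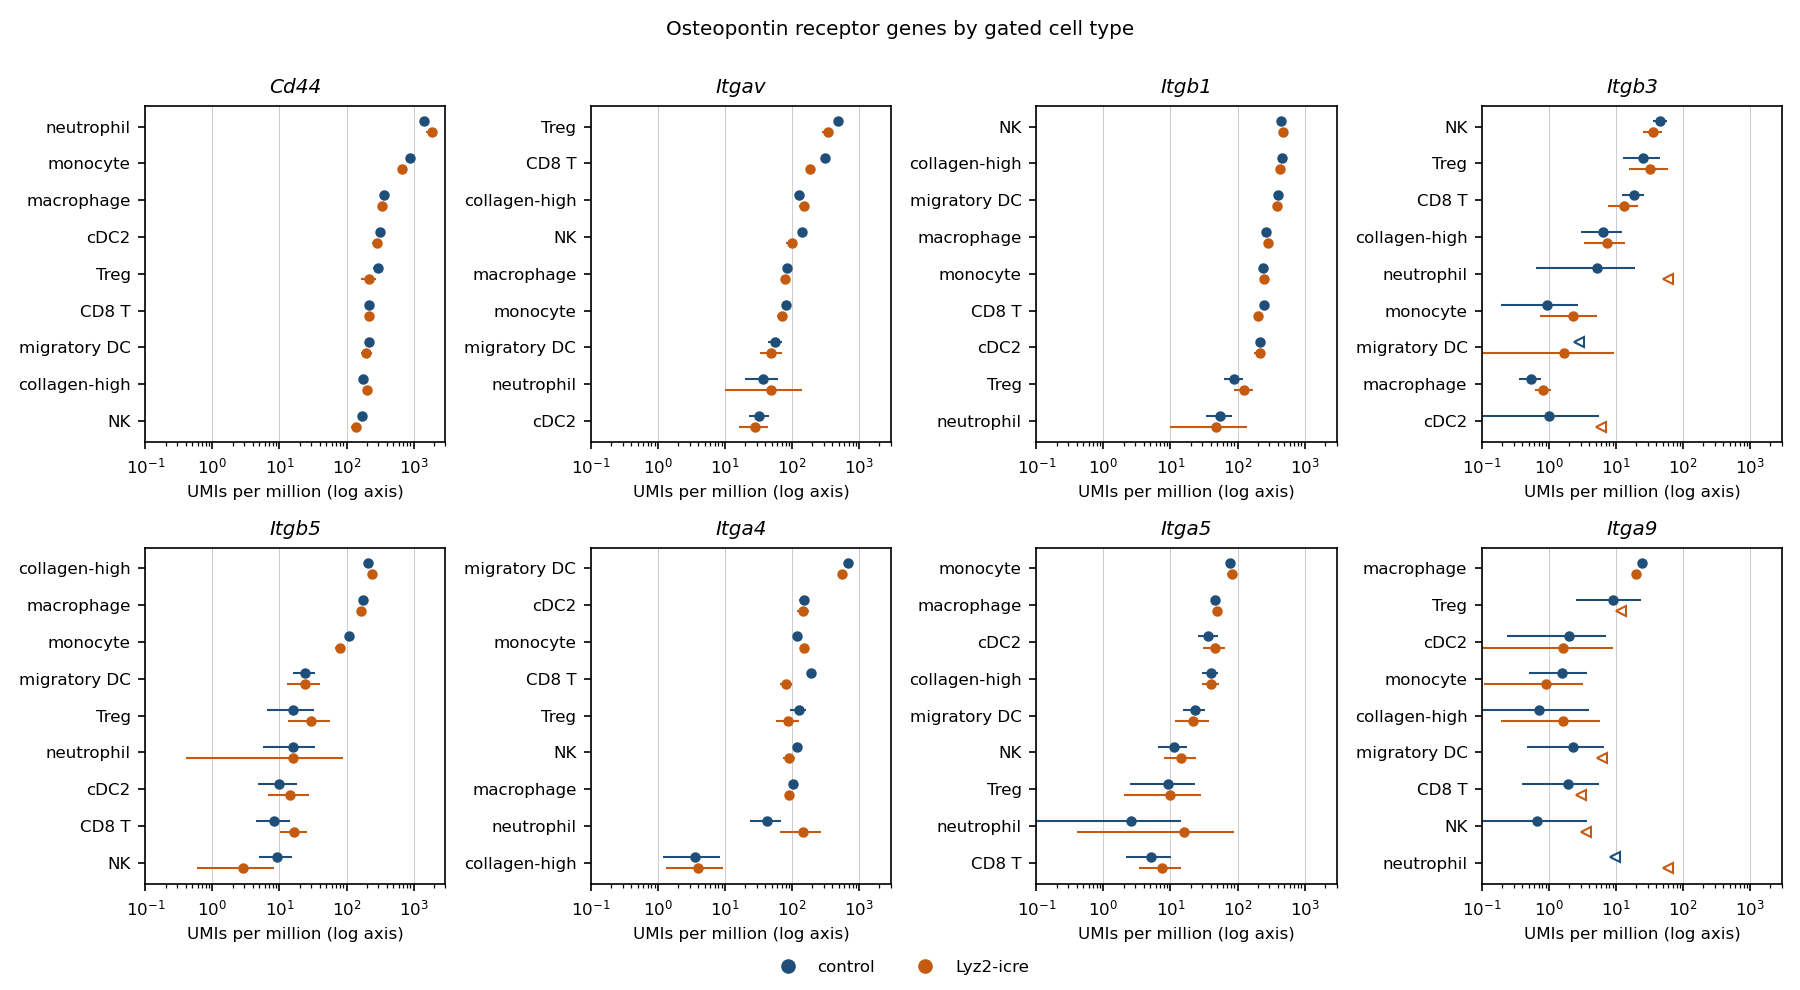
Level of each receptor gene (CPM, log axis starting at 0.1) in the 9 gated cell types of the control (blue) and Lyz2-icre (orange) libraries; points are library values, bars exact Poisson 95% intervals, and open triangles the upper limit where no UMI was found. Cd44 is highest in neutrophil-gated cells (1417 and 1881), Itgav in Treg-gated cells (483 and 343), Itga4 in migratory DC-gated cells (678 and 560) and Itga9 in macrophage-gated cells (24.6 and 19.9).

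Cd44 (ENSMUSG00000005087, chr2:102811141-102901665, minus strand) was found in every type and was highest in neutrophil- and monocyte-gated cells. Its level was 1417 and 1881 in neutrophil-gated cells, 882 and 680 in monocyte-gated cells and 363 and 344 in macrophage-gated cells. These 3 types kept this order in both libraries without overlap. The range among the other types was small, from 320 and 281 in cDC2-gated cells down to 167 and 137 in NK-gated cells. CD8 T-gated cells had 218 and 217, and Treg-gated cells 299.8 and 215.5. Of the 8 pairs of neighbours in the ranking, 3 had overlapping library values: cDC2 with Treg, Treg with CD8 T, and migratory DC with collagen-high. When every cell was thinned to 2000 UMIs and shallower cells were left out, 89.6% of 106 control neutrophil-gated cells held a Cd44 UMI, against 47.4% of 4812 and 47.7% of 8464 macrophage-gated cells and 25% of 204 and 25.7% of 202 NK-gated cells. Without thinning, the shares were 94.5%, 84.2% and 78.3%, and 54.1% and 43.3%. No Lyz2-icre neutrophil-gated cell reached 2000 UMIs, which left that group without a thinned share.

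The αv chain had its highest levels in T cells. Itgav (ENSMUSG00000027087, chr2:83724397-83806916, plus strand) was highest in Treg-gated cells, at 483 and 343, followed by CD8 T-gated cells at 310 and 183. With clusters in place of gates, CD8 T cells ranked first in the control library. Macrophage-gated cells had 84.0 and 78.1, below NK-gated cells (143 and 99.5) and collagen-high cells (128 and 150). The lowest level was in cDC2-gated cells, at 32.6 and 27.6. Neighbours overlapped in 2 of 8 pairs, collagen-high with NK and macrophage with monocyte. After thinning, 65% of 80 and 46.2% of 52 Treg-gated cells held an Itgav UMI, and 14.5% and 13.8% of macrophage-gated cells did (83.7% and 67.1%, and 47.9% and 37.7%, without thinning).

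The β chains that pair with αv were spread over different cells. Itgb3 (ENSMUSG00000020689, chr11:104608000-104670476, plus strand), the β chain of the vitronectin receptor αvβ3, was found mainly in lymphocytes: 45.3 and 35.4 in NK-gated, 25.2 and 32.7 in Treg-gated and 18.4 and 13.2 in CD8 T-gated cells. In macrophage-gated cells it was close to nothing, at 0.531 and 0.810, with 28 UMIs in 5154 cells and 55 UMIs in 9540 cells. Neighbours overlapped in 4 of 8 pairs, all among the types with 5.24 or less: neutrophil, monocyte, migratory DC, macrophage and cDC2.

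Itgb5 (ENSMUSG00000022817, chr16:33829665-33949338, plus strand), the β chain of αvβ5, had nearly the opposite distribution. It was highest in collagen-high cells (207 and 241), then in macrophage-gated (176 and 164) and monocyte-gated cells (107 and 79.1). With clusters in place of gates, its highest level was in macrophages in both libraries. In lymphocytes it stood between 2.87 and 29.4. Set against the macrophage level, that was 4.70% and 10.1% in CD8 T-gated cells, 5.22% and 1.76% in NK-gated and 9.10% and 18.0% in Treg-gated cells. The summed macrophage markers in the same gates stood at 4.14% and 4.12%, 4.74% and 3.10%, and 7.69% and 7.80%, and their part in the lymphocyte Itgb5 level was not tested.

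Itgb1 (ENSMUSG00000025809, chr8:128685654-128733200, plus strand), which pairs with αv, α4, α5 and α9, was the most even of the β chains. NK-gated cells (446 and 478) and collagen-high cells (461 and 427) overlapped at the top, followed by migratory DC-gated (397 and 388) and macrophage-gated cells (268 and 287). Treg-gated cells, with 89.3 and 124, and neutrophil-gated cells, with 55 and 47.8 (21 and 3 UMIs), were the lowest. Their library values overlapped with no other type. The interval of the Lyz2-icre neutrophil value, 9.86 to 140, held both Treg values, so the order of these 2 types is not settled. The type richest in Itgav (Treg-gated) and the type richest in Cd44 (neutrophil-gated) were thus the poorest in Itgb1. After thinning, 62.3% and 65.3% of NK-gated cells held an Itgb1 UMI against 13.8% and 19.2% of Treg-gated cells (86.7% and 80.4%, and 27.9% and 38.6%, without thinning).

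The α chains that pair with β1 each marked another kind of cell. Itga4 (ENSMUSG00000027009, chr2:79255426-79333123, plus strand), the α chain of VLA-4, through which leukocytes also bind VCAM-1 and fibronectin, was highest in migratory DC-gated cells, at 678 and 560. The next type, cDC2-gated cells, had 152 and 148, and 7 of the 9 types lay between 41.9 and 192 in an order that differed between the libraries. Neighbours overlapped in 6 of 8 pairs, and only migratory DC at the top and collagen-high cells at the bottom (3.60 and 4.01) stood clear of them. After thinning, 72.5% of 142 and 63.8% of 94 migratory DC-gated cells held an Itga4 UMI (89.5% and 81.0% without thinning). None of the 103 and 138 thinned collagen-high cells did, which allows shares of up to 2.91% and 2.17%.

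Itga5 (ENSMUSG00000000555, chr15:103344286-103366763, minus strand), the α chain of the fibronectin receptor, was highest in monocyte-gated cells (76.1 and 82.3), followed by macrophage-gated cells (46.2 and 49.4), with collagen-high cells (39.6 and 40.1) and cDC2-gated cells (36.6 and 45.4) next. In CD8 T-gated cells it was 5.09 and 7.44, and neutrophil-gated cells held 1 UMI in each library. Itga9 (ENSMUSG00000039115, chr9:118606690-118901003, plus strand), the α chain of the receptor for cut osteopontin and tenascin, was found almost only in macrophage-gated cells, at 24.6 and 19.9. No other type exceeded 9.15 (4 UMIs in control Treg-gated cells), and 5 types had no Itga9 UMI in the Lyz2-icre library. Cells that passed both the macrophage and the monocyte gate had 13.6 and 11.7, between the macrophage-gated and the monocyte-gated cells (1.57 and 0.899). For Itga9, 6 of 8 neighbouring pairs overlapped, which left only the place of the macrophage-gated cells clear. Among genes listed for the libraries that overlap a receptor gene in the annotation, Mir6963 lies on the strand of Itga5. On the opposite strand, Cerkl overlaps Itga4, Gm13684 and Dnmt3l-ps1 overlap Itgav, and Gm10157 and Gm2415 overlap Itga9. Whether counting used strand is not given in the sources used here.

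Detection of both chains in the same cell followed these patterns. The α4 and β1 chains were found together most often in migratory DC-gated cells, in 35.2% (interval 27.4% to 43.7%) of 142 control and 27.7% (18.9% to 37.8%) of 94 Lyz2-icre cells thinned to 2000 UMIs. The share was 6.82% and 6.81% in macrophage-gated cells. The αv and β1 chains were found together in 15.04% and 8.33% of CD8 T-gated, 13.7% and 8.91% of NK-gated and 10.7% and 14.5% of collagen-high cells. The αvβ3 pair, often named as the osteopontin receptor, was nearly undetected in macrophage-gated cells, where 0 of 4812 control cells held both UMIs, which allows a share of up to 0.0623%, and 5 of 8464 Lyz2-icre cells did. In NK-gated cells 6 of 204 and 2 of 202 did, and in CD8 T-gated cells 6 of 246 and 2 of 264. The αvβ5 pair was found in 4.53% and 3.64% of macrophage-gated cells and in 8.74% and 8.70% of collagen-high cells, and in 0 of 204 and 0 of 202 NK-gated cells. The α9β1 pair was found in 2.08% and 1.76% of macrophage-gated cells. For α4 with β1 the product of the shares with each chain was 36.3% and 30.6% in migratory DC-gated and 6.96% and 6.82% in macrophage-gated cells, near the shares with both. In smaller groups the product and the share lay further apart, as for control αvβ5 in collagen-high cells (product 5.73%, share 8.74%) and control αvβ1 in Treg-gated cells (product 8.94%, share 5%, from 4 of 80 cells). At 2000 UMIs a cell that has an RNA often shows no UMI of it, so the shares compare types at that depth and do not count the cells that make a receptor.

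**Figure D2:**
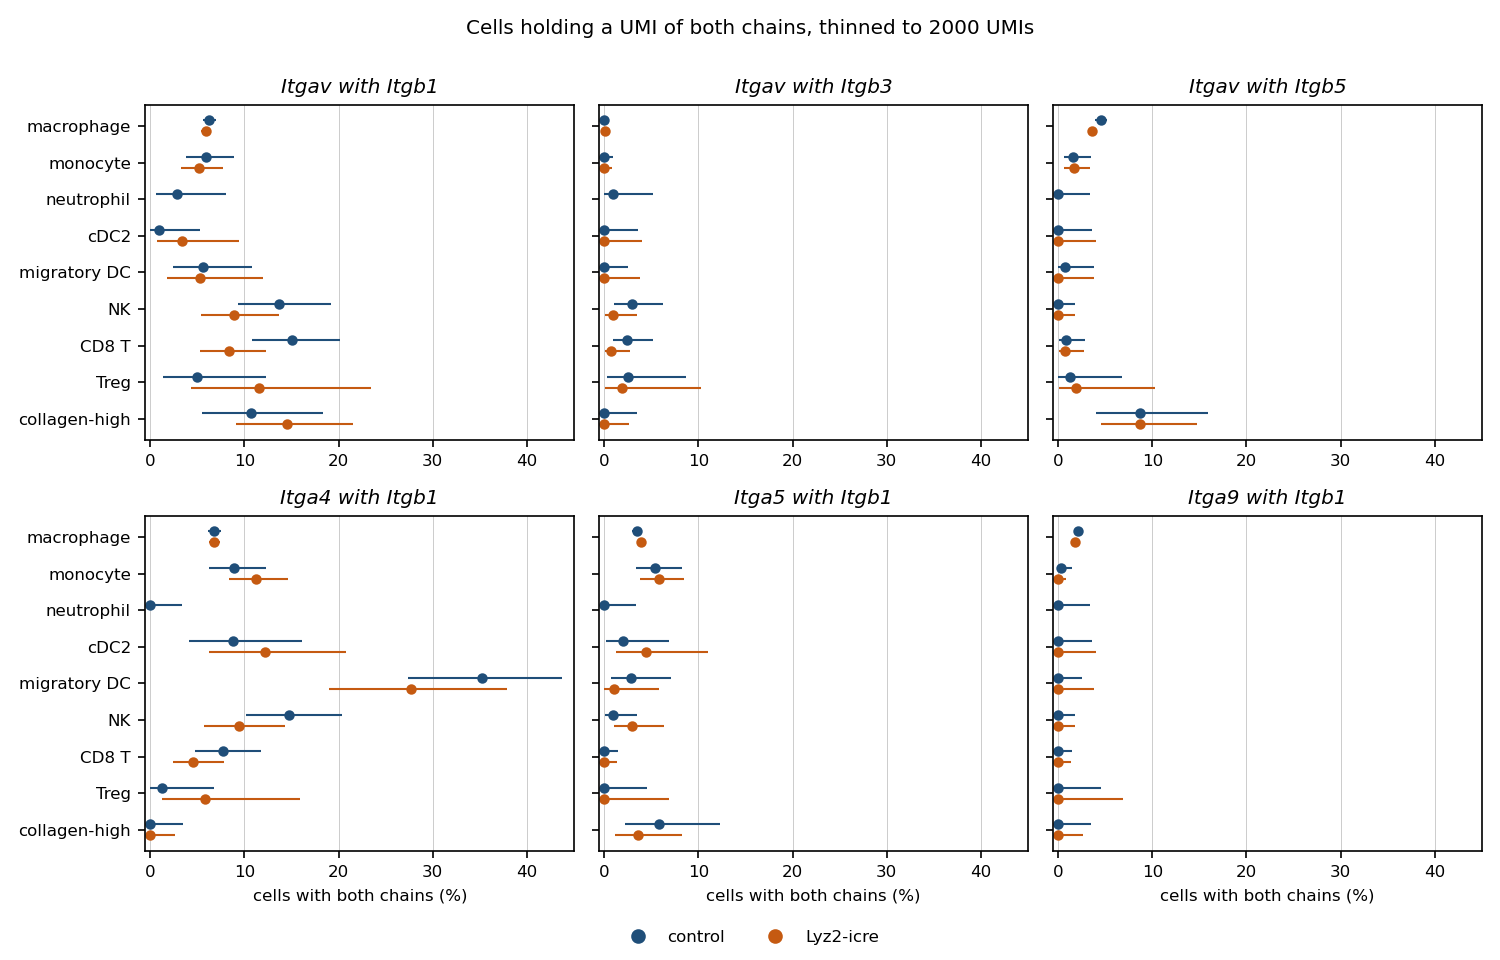
Percentage of cells, thinned to 2000 UMIs each, that held a UMI of both chains of an integrin, in the control (blue) and Lyz2-icre (orange) libraries; bars are exact Clopper-Pearson 95% intervals, and groups with fewer than 50 thinned cells have no point. α4 with β1 reaches 35.2% and 27.7% in migratory DC-gated cells, while αv with β3 is at 2.94% or less in all 9 types.

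The next comparison asked whether the receptor genes differ between tumours of mice with and without the Lyz2-driven Cre. In macrophage-gated cells, where the ratio of Spp1 was 0.00791, none of the 7 receptor genes measured at 10 or more CPM differed by 1.5-fold or more, and 2.03% of the 7923 genes measured did. The ratios of Lyz2-icre to control were 0.948 for Cd44 (interval 0.930 to 0.966), 0.929 for Itgav (0.893 to 0.967), 1.07 for Itgb1 (1.05 to 1.09) and 0.929 for Itgb5 (0.904 to 0.956). For the α chains that pair with β1 they were 0.872 for Itga4 (0.841 to 0.904), 1.07 for Itga5 (1.02 to 1.13) and 0.806 for Itga9 (0.746 to 0.871). The median log2 ratio of the 7 genes was -0.10 and that of all genes -0.0097. In 4 of the 7 genes the ratio lay on opposite sides of 1 in female and male cells, and in 3 of these (Itga9, Cd44 and Itgb5) both intervals excluded 1. The share of all genes with such opposite ratios was not counted. The median log2 ratio of all genes measured was itself -0.046 in female and 0.047 in male cells. Itga9 had 30.1 and 18.6 in female cells (ratio 0.618, 0.559 to 0.682) but 14.4 and 19.97 in male cells (ratio 1.39, 1.16 to 1.66). Cd44 had 336 and 350 in female and 406 and 337 in male cells, and Itgb5 191 and 164 in female and 145 and 161 in male cells. The fourth was Itga5, with a ratio of 1.10 (1.03 to 1.18) in female and 0.984 (0.885 to 1.09) in male cells. Itgb1 had a ratio above 1 in both sexes (1.06 and 1.10), and Itgav a ratio below 1 in both (0.910 and 0.926).

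In CD8 T-gated cells, 2 integrin α chains were lower in the Lyz2-icre library. Itga4 had 192 CPM in control (302 UMIs) and 82.7 in Lyz2-icre (100 UMIs), a ratio of 0.430 (0.340 to 0.541). Itgav had 310 (488 UMIs) and 183 (221 UMIs), a ratio of 0.589 (0.4998 to 0.691). Cd44, the activation marker, had 218 and 217, a ratio of 0.996 (0.844 to 1.17), and Itgb1 251 and 202.5, a ratio of 0.808 (0.686 to 0.9504). Of the 6 receptor genes measured in this type, 3 were past 1.5-fold, against 17% of all 8428 genes measured, with 11.5% of genes lower and 5.52% higher. The third was Itgb5, with a ratio of 1.9996 (0.947 to 4.37, from 13 and 20 UMIs), and in cells thinned to 2000 UMIs its log2 ratio turned to -0.27. The thinned share of CD8 T-gated cells with a UMI was 40.7% of 246 and 29.9% of 264 for Itgav and 28.0% and 14.02% for Itga4 (71.4% and 43.5%, and 55.6% and 19.8%, without thinning). CD8 T-gated cells were shallower in the Lyz2-icre library, with a median of 3385 UMIs against 5160.

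The lower Itga4 and Itgav levels were present when the CD8 T-gated cells were divided by proliferation genes and by sex. In cells with a UMI of the proliferation genes Mki67 or Top2a, Itga4 had 164 and 94.0 and Itgav 296 and 181. In cells without one, Itga4 had 229 and 71.7 and Itgav 329 and 184. Female cells had 208 and 91.3 for Itga4 and 345 and 188 for Itgav, and male cells 127 and 72.9 and 286 and 194. The summed share of the 4 macrophage markers in this gate was nearly equal in the 2 libraries, as given above. In the same gate Fn1 had 38.2 and 202.5 and Lyz2 460 and 273. Lyz2 was also lower in Lyz2-icre macrophage-gated cells, at 11229 and 4019, a ratio of 0.358 beside 0.592 in CD8 T-gated cells. The part of macrophage RNA in the Itga4 and Itgav levels was not tested. Gzmb, which encodes granzyme B of activated killer cells, stood at 570 in control and 929 in Lyz2-icre CD8 T-gated cells, and its part in the lower Itga4 and Itgav levels was not tested.

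**Figure D3:**
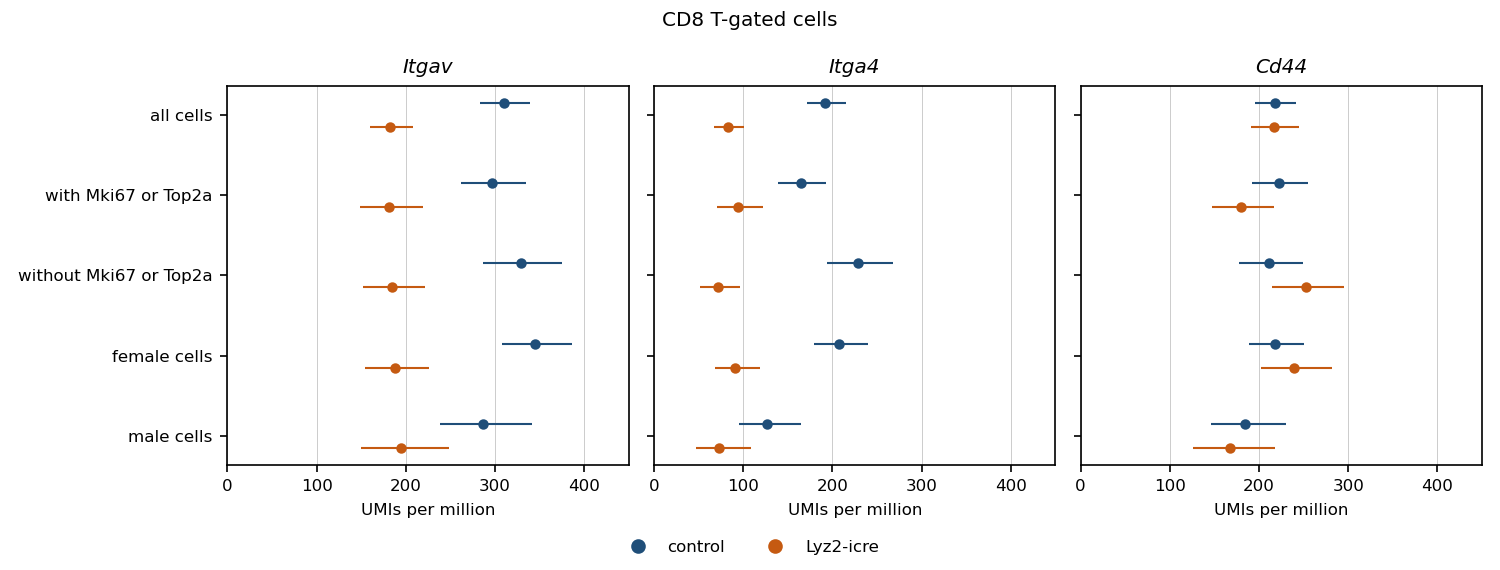
Levels (CPM) of Itgav, Itga4 and Cd44 in CD8 T-gated cells of the control (blue) and Lyz2-icre (orange) libraries, in all cells, in cells with and without UMIs of proliferation genes, and in cells of each sex; bars are exact Poisson 95% intervals. Orange lies below blue on every line for Itgav and Itga4, whereas Cd44 has 218 and 217 in all cells and no single direction among the subsets.

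NK- and Treg-gated cells had lower Itgav levels in the Lyz2-icre library too. The ratio was 0.695 (0.545 to 0.882) in NK-gated cells and 0.710 (0.556 to 0.901) in Treg-gated cells, neither past 1.5-fold. Of all genes measured, 10.9% in NK- and 23.8% in Treg-gated cells had a lower log2 ratio. Other receptor genes were lower as well, among them Itga4 in NK-gated cells (0.753, 0.581 to 0.971). In Treg-gated cells they included Cd44 (0.719, 0.526 to 0.974) and Itga4 (0.700, 0.425 to 1.13). Of the 6 measured, 2 in NK- and 3 in Treg-gated cells had a ratio above 1. For Itgav the 2 sexes differed in NK-gated cells. Female cells had 164 in 160 control and 78.2 in 141 Lyz2-icre cells, and the 36 and 43 male cells had 86.2 and 111 (22 and 24 UMIs). None of 6 receptor genes measured was past 1.5-fold in NK-gated cells (17.5% of all genes) and 1 of 6 in Treg-gated cells (37.7% of all genes), that 1 being Itgb5 from 7 and 9 UMIs. Whether the Itgav ratio differs between CD8 T-, NK- and Treg-gated cells was not tested.

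Monocyte-gated cells had small differences in both directions. Cd44 had a ratio of 0.771 (0.724 to 0.821), Itgb5 0.736 (0.6105 to 0.886) and Itga4 1.27 (1.10 to 1.48). None of the 6 measured genes was past 1.5-fold, against 13.3% of all genes. In female and male monocyte-gated cells the ratio was 0.783 and 0.638 for Cd44. It was 0.585 and 1.26 (0.795 to 2.03) for Itgb5 and 1.45 and 1.04 (0.731 to 1.48) for Itga4. With clusters in place of gates the log2 ratio of Itga4 went from 0.33 to 0.019. In neutrophil-gated cells 2 of 6 were past 1.5-fold, Itga4 (16 and 9 UMIs) and Itga5 (1 and 1 UMI), where 69.4% of all genes were, so that the count says nothing about the receptors. Cd44 in these cells had a ratio of 1.33 (1.08 to 1.62), a log2 ratio of 0.41 beside a median of 0.34 over all genes. None of 6 genes was past 1.5-fold in cDC2-gated cells (24.8% of all genes), none of 6 in migratory DC-gated cells (27.7%) and none of 5 in collagen-high cells (16%). The Itga4 level that marks migratory DC-gated cells had a ratio of 0.826 (0.726 to 0.939), a log2 ratio of -0.27. It was -0.0094 with doubled gate minimums and -0.057 with clusters in place of gates, so the difference depended on how the cells were set.

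**Figure D4:**
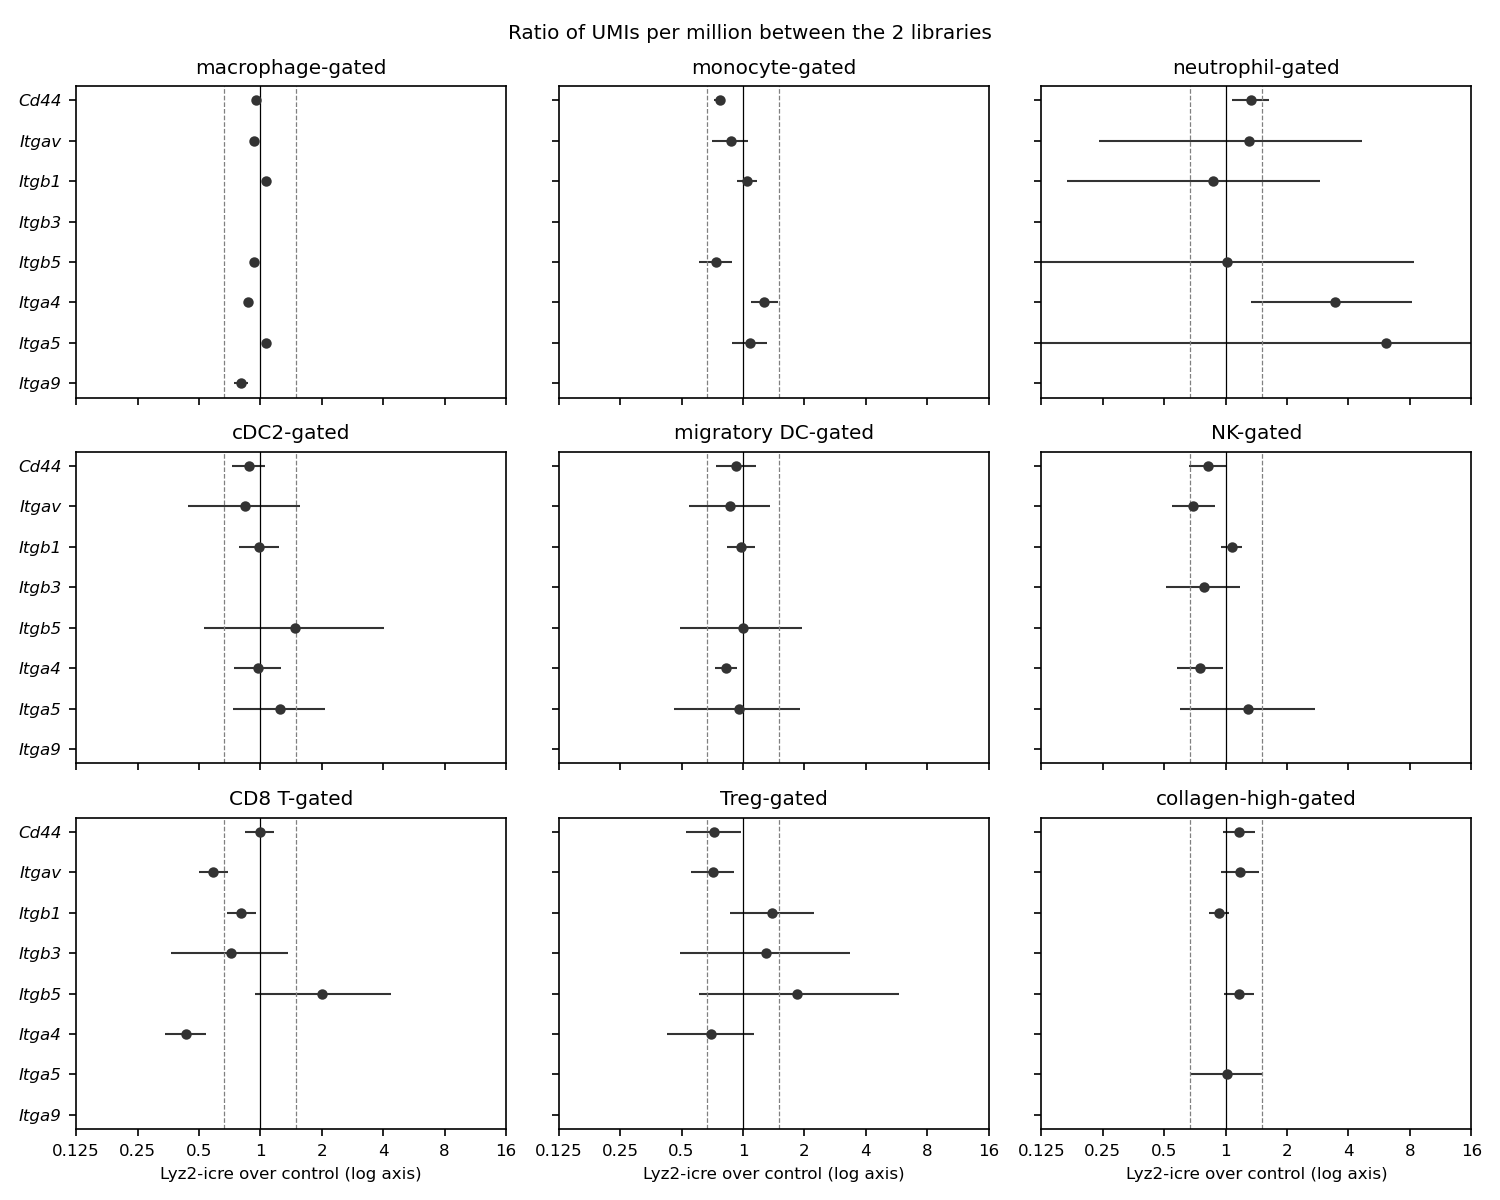
Ratio of the Lyz2-icre to the control level (log axis; dashed lines at 1.5-fold) of each receptor gene measured at 10 or more CPM in either library, by gated cell type; bars are exact 95% intervals from the counts, cut at the axis in the neutrophil panel. Itga4 (0.430) and Itgav (0.589) in CD8 T-gated cells lie beyond the dashed line with their points, while all 7 macrophage values lie between 0.806 and 1.07.

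The control library allowed a further comparison, of receptor genes in myeloid cells by the number of Spp1 UMIs found with the cell. Control macrophage-gated cells of at least 2000 UMIs, thinned to that number, held 0 Spp1 UMIs in 3132 cells, 1 to 2 in 1134 and 3 or more in 546. These are ranges of a count, not cell types, and a UMI can come from free RNA. A Spp1 UMI was found in 34.9% of these cells (median 10203.5 UMIs before thinning), but also in 7.75% of 142 migratory DC-gated (median 8265.5) and 10% of 80 Treg-gated control cells (median 3887.5). None of those migratory DC- or Treg-gated cells held 3 or more, against 11.3% of the macrophage-gated cells. In the other control gates 3 or more were held by 2.94% of cDC2-, 5.69% of CD8 T- and 8.33% of NK-gated cells. The shares were 13.2% in neutrophil-gated, 35.2% in monocyte-gated and 2.91% in collagen-high cells. A Spp1 UMI at all was found in 34.8% of control NK-gated and 19.5% of control CD8 T-gated cells. The part of free RNA in the ranges was not tested. Cd44 was higher with more Spp1 UMIs, at 343, 374 and 478 across the 3 ranges, a ratio of the highest to the lowest range of 1.39 (1.27 to 1.54). Itga9 was lower, at 33.8, 12.8 and 10.1 (ratio 0.298, 0.146 to 0.543), and Itgb5 was lower at 193, 186 and 148 (ratio 0.767, 0.647 to 0.905). Itgb1 was slightly higher at 255, 261 and 310 (ratio 1.21, 1.07 to 1.36), and Itgav was nearly level at 83.0, 89.5 and 82.4. The Itga9 ratio was 0.320 in female and 0.324 in male cells, where it rested on 6 and 3 UMIs in the highest range. The Cd44 ratio was 1.67 (1.46 to 1.92) in female and 1.08 (0.908 to 1.28) in male cells, and that of Itgav 0.870 and 1.55. Before thinning, median UMIs were 9914.5 in cells with no Spp1 UMI and 11153 in those of the highest range.

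In monocyte-gated control cells, of which 52.6% held a Spp1 UMI, other receptor genes differed by range. Itgav had 28.6 in 175 cells with no Spp1 UMI, 62.5 in 64 cells with 1 to 2 UMIs and 119 in 130 cells with 3 or more, a ratio of 4.17 (1.99 to 9.54, from 10 and 31 UMIs). Itga4 was lower, with 203, 102 and 38.5, a ratio of 0.190 (0.0872 to 0.369, from 71 and 10 UMIs). Cd44 stayed at 954, 1086 and 923. In the female cells alone, 122 with none and 115 with 3 or more Spp1 UMIs, the ratios were 3.58 for Itgav and 0.208 for Itga4, and only 10 male cells lay in the highest range. In NK-gated cells, divided into those with 0 and those with 1 or more Spp1 UMIs, Itgav had 139 and 120 in control and 78.2 and 100 in Lyz2-icre, and Itgb1 462 and 415.5 and 531 and 555, all with overlapping intervals.

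**Figure D5:**
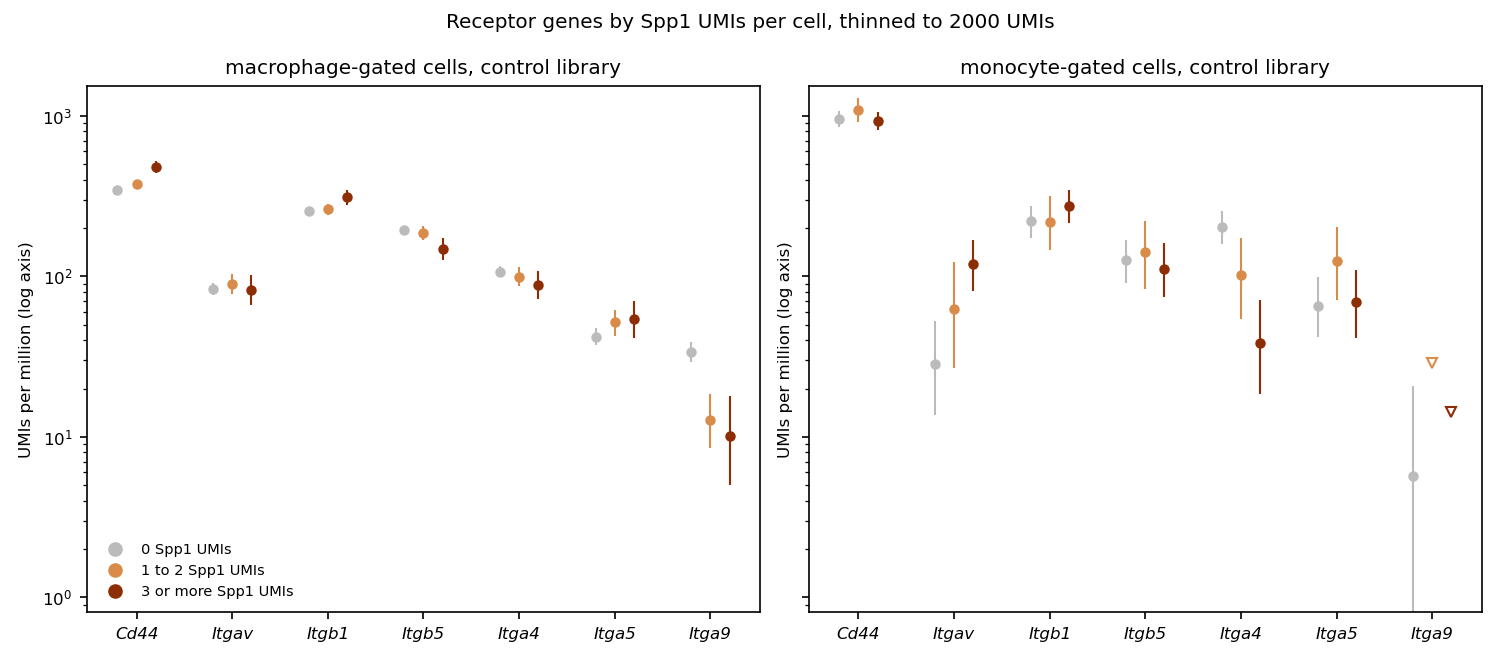
Level (CPM, log axis) of 7 receptor genes in control macrophage-gated (left) and monocyte-gated (right) cells thinned to 2000 UMIs, by the number of Spp1 UMIs in the cell; bars are exact Poisson 95% intervals, and open triangles mark upper limits where no UMI was found. Itga9 is lower in macrophage-gated cells with Spp1 UMIs (33.8, 12.8 and 10.1), and in monocyte-gated cells Itgav is higher (28.6, 62.5 and 119) and Itga4 lower (203, 102 and 38.5).

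Other genes of the osteopontin pathway were read in macrophage-gated cells from lists, among members at 20 or more CPM. Of 16 other integrin chains 5 were measured, 3 higher and 2 lower in Lyz2-icre, none past 1.5-fold. The complement receptor chain Itgam had 386 and 282 (ratio 0.731) and the laminin receptor chain Itga6 102 and 76.4 (0.746), whereas Itgax (98.2 and 116, ratio 1.19) and Itgb2 (208 and 235, ratio 1.13) were higher. Of 4 further chains that can pair with these, only Itgb7, the other partner of α4, was measured, at 36.5 and 34.3. Competing ligands went both ways in 6 measured genes: Thbs1, thrombospondin-1, was past 1.5-fold lower (468 and 289, ratio 0.617), Vcam1 had a ratio of 0.832, Fn1 (fibronectin) 1.11 and Adam15 1.12. Among 4 measured proteases that can cut osteopontin, Mmp12 was past 1.5-fold higher (284 and 459, ratio 1.61), with Ctsd at 1.13, Ctsb at 0.9785 and Plau at 0.967. Of 12 measured integrin adaptors and kinases 6 were higher and 6 lower, from Pxn (0.830) and Apbb1ip (0.831) to Ptk2b (1.06) and Ilk (1.17). Of 5 measured CD44 linkers and partners, the cytokine Mif was past 1.5-fold higher (424 and 732, ratio 1.73), Cd74, its receptor, had 1.09, Ezr 0.972 and Rdx 0.863. The medians of these lists lay between -0.08 and 0.17 on the log2 scale, beside -0.0063 for all 5945 genes measured at that level. In all, 3 of the 33 listed genes measured were past 1.5-fold (9.09%), against 1.61% of those 5945 genes. The lists were chosen with earlier results of these data known, so no excess can be read from this share.

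In CD8 T-gated cells the same lists held 4 genes past 1.5-fold, all higher in Lyz2-icre, named here after their values were seen. That is 4 of the 30 listed genes measured at 20 or more CPM (13.3%), against 11.9% of all 6297 genes at that level, a share near the background. Fn1 had 38.2 and 202.5 (ratio 5.31, 3.99 to 7.16), beside 1009 and 1121 in macrophage-gated cells, whose part in the CD8 T value was not tested. Thbs1 had 17.8 and 38.8, Mmp12 26.7 and 40.5 and Rasgrp2, an activator of integrins through Rap1, 11.4 and 23.1. Of 13 measured adaptors and kinases 7 were higher and 6 lower. The other α4 partner Itgb7 and the other measured integrin chains held no gene past 1.5-fold: Itgb7 had 35.0 and 44.6, and the chains of LFA-1 had 269 and 314 (Itgal) and 200.3 and 210.8 (Itgb2).

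The genes whose levels over 20 cell type profiles (types of at least 50 cells, each library on its own) followed each receptor gene most closely were taken from 6311 genes at 50 or more CPM in some profile. Pearson's r of log2 levels is given as a description, since profiles of 1 library share its depth. Cd44 was most like Gm5150 (r = 0.947), F630028O10Rik (0.940) and Fpr2 (0.939), all highest in neutrophil-gated cells. Itgav was most like Agfg1 (0.882), Prkca (0.8765) and Rnf146 (0.867), and Itgb3 like Gimap9 (0.9501), Rab37 (0.936) and Jak1 (0.936). Itgb5 was most like the chemokine gene Ccl2 (0.964), with Blvrb (0.932) and Ptgs1 (0.920) next. Itga4 was most like St8sia4 (0.922), Bcl2a1d (0.917) and Cytip (0.912), all highest in migratory DC-gated cells. Itgb1 was most like Fnta (0.880), Rpl10 (0.879) and Eif4b (0.870), Itga5 like Rnh1 (0.890), Ppp1r21 (0.852) and Cnih4 (0.848), and Itga9 like Blnk (0.840), the integrin chain Itga6 (0.796) and Hpgds (0.790), all 3 highest in macrophage-gated cells. Among the receptor genes themselves, Itgav and Itgb3 had the highest r (0.709) and Cd44 and Itgb1 the lowest (-0.726).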

How the data were processed

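Gene-by-cell counts of UMIs, deposited by the authors for 2 libraries as 10x matrices with no normalization, were made with Cell Ranger 8.0.1 per the file headers. The mm10 build and bcl2fastq 5.0.1 are named per the submitters' processing notes, and the annotation release is not given in the sources used here. Cells under 300 genes, under 500 UMIs or over 15% mitochondrial UMIs were removed, and the others passed the filter and were gated by marker UMIs, the macrophage gate at 0.2% C1q UMIs; no doublet caller was run, and cells passing more than 1 gate were set aside. UMIs were summed per gate and library and scaled to 1000000 UMIs of the gate (CPM), with exact Poisson intervals. Ratios have exact conditional binomial intervals, and log2 ratios had 5 CPM added. Shares used cells thinned once to 2000 UMIs. A gene at 10 or more CPM in the higher library was past the fold at 1.5. No test between genotypes was possible with 1 library each. The rule named all 8 genes, whose levels in the 9 gates of 50 cells in both libraries are all plotted, and from the other lists the 2 highest and 2 lowest ratios in macrophage-gated cells; for likeness, the 3 highest r, leaving out gate genes. The genes, gates and lists were chosen with earlier results of these data known. The ratio and its interval were tested on simulated Poisson counts. That is the model the interval assumes, so spread between cells or mice was not covered. Clusters (Leiden, resolution 2, 30 components, scanpy 1.11.5) served only as an alternative. Positions and coding stretches came from GENCODE vM21 (GRCm38). Python 3.11.15, SciPy 1.17.1 and pandas 2.3.3 were used. In single-cell sums, UMIs of one cell are not independent, and intervals cover counting error only. A planned division of the CD8 T-gated cells by further markers is not reported here.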

Additional observations from a re-analysis of the deposited data

Results flagged for a closer look

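In macrophage-gated cells 3 receptor genes had a ratio of Lyz2-icre to control on opposite sides of 1 in female and in male cells, with both intervals excluding 1. On the log2 scale the ratio was 0.060 in female and -0.27 in male cells for Cd44, -0.21 and 0.14 for Itgb5 and -0.57 and 0.36 for Itga9. Itga5 also had opposite signs, 0.13 in female and -0.021 in male cells, but the male interval included no difference. The median of all genes measured was -0.046 in female and 0.047 in male cells. How many of all genes had opposite signs was not counted, so the 3 genes cannot be set against a background. The comparison rests on 3040 and 5456 female cells and 1297 and 1772 male cells of the control and Lyz2-icre libraries. The difference between the sexes was not tested, since each library is 1 pool of mice of unstated number, and sex and single mice cannot be told apart.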

How the results depend on the processing

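Of 54 log2 ratios of receptor genes between genotypes, 25 kept their sign in all 14 alternatives that gave a value and 29 turned in some. Itgav (from -0.86 to -0.55) and Itga4 (from -1.28 to -0.76) in CD8 T-gated cells kept theirs. Itgb5 turned to -0.27 in CD8 T-gated cells thinned to 2000 UMIs, and in Treg-gated cells to -0.70 when thinned, -0.10 by the mean of per-cell values and -0.088 with the macrophage gate at 0.4%. Itga4 in migratory DC-gated cells went from -0.27 to -0.0094 with doubled gate minimums and -0.057 with clusters. In the counts that follow, brackets give the share of all measured genes past the fold in the same setting. The 3 genes past 1.5-fold in CD8 T-gated cells were 2 with clusters (17.4%), thinned cells (33.3%), female cells (26.9%) and genes at 50 CPM or more (6.98%). They were 4 with male cells (39.8%), a lower fold threshold (40.4%) and every gene with a UMI (44.0%). The 2 in neutrophil-gated cells were 3 with doubled gate minimums (66.8%), the macrophage gate at 0.1% (72.5%) and every gene with a UMI (79.3%). Elsewhere the number of genes past 1.5-fold differed as follows; the cause was not tested. Doubled gate minimums gave 2 in cDC2-gated cells (31.7%). The macrophage gate at 0.1% gave 1 in cDC2- (26.9%) and 5 in Treg-gated cells (40.8%), and at 0.4% 1 in NK-gated cells (15.9%). Means of per-cell values gave 1 in monocyte- (13.8%), 1 in migratory DC- (33.4%) and 2 in Treg-gated cells (45.3%). Thinned cells gave 2 in cDC2- (49.2%), 3 in migratory DC- (53.9%), 3 in NK- (35.1%) and 2 in Treg-gated cells (58.1%). Female cells gave 1 in macrophage- (4.20%), 1 in monocyte- (18.7%), 1 in migratory DC- (37.1%) and 2 in NK-gated cells (23.4%). Male cells gave 3 in monocyte-gated cells (34.3%). Without the deepest 5% of cells Treg-gated cells had 3 (41.7%). A lower fold threshold gave 3 in monocyte- (34.7%), 4 in neutrophil- (80.9%), 1 in cDC2- (48.2%), 4 in NK- (39.4%) and 6 in Treg-gated cells (59.6%). A fold of 2 gave 1 in CD8 T- (4.83%) and 0 in Treg-gated cells (19.0%). Genes at 50 CPM or more gave 1 in neutrophil- (50.7%) and 0 in Treg-gated cells (21.8%). With every gene with a UMI there were 1 in macrophage- (36.9%), 2 in monocyte- (41.6%) and 1 in cDC2-gated cells (49.4%). The same setting gave 2 in migratory DC- (50.4%), 2 in NK- (41.1%) and 2 in Treg-gated cells (49.9963%), with 1 in collagen-high cells (40.006%). The type with the highest level was the same in 16 of 16 cases (8 genes, 2 libraries) except with clusters (13), thinned cells (15) and male cells (15). With clusters, Itgb5 was highest in macrophages in both libraries and Itgav in CD8 T cells in control. In thinned cells Itgb3 was highest in Treg-gated cells in Lyz2-icre. In male cells Itga4 was highest in monocyte- and not CD8 T-gated cells in control, among the types left. Median-of-ratios scaling took the median log2 ratio of all genes in neutrophil-gated cells from 0.34 to 0.088 and that of Cd44 there from 0.41 to 0.12. Stricter cell filters, thinning and single sexes left neutrophil-gated cells under 50, doubled gate minimums left Treg-gated cells under 50, female cells alone also lost Treg-gated and collagen-high cells, and male cells alone left only macrophage-, monocyte- and CD8 T-gated cells. Of 114 pair shares, 53 lay outside their interval when cells were thinned to 1000 UMIs. Lower depth by itself lowers such shares, so this count does not measure how stable the patterns are. For α4 with β1 the control share went from 6.82% to 2.25% in macrophage-gated and from 35.2% to 16.1% in migratory DC-gated cells. No paired analysis was possible because each genotype has 1 library, and leaving out a replicate was not possible for the same reason.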

Other observations

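T cells with 50 or more cells only in the control library belong to no comparison. The 65 control CD4 conventional T-gated cells had 340.5 CPM of Cd44, 244 of Itgav, 405 of Itgb1 and 41.1 of Itgb3, with 161 of Itga4, 11.7 of Itgb5 (4 UMIs), 2.94 of Itga9 (1 UMI) and no Itga5 UMI. The 59 control γδ T-gated cells had 400.2 of Cd44, 68.6 of Itgav, 236 of Itgb1 and 34.3 of Itga5, with 95.3 of Itga4, 30.5 of Itgb3 (8 UMIs), 11.4 of Itgb5 (3 UMIs) and no Itga9 UMI. Itgav in γδ T-gated cells (18 UMIs) was thus under the level of the other T cells of the same library (244 in CD4 conventional, 310 in CD8 T- and 483 in Treg-gated cells), and Itga5 (9 UMIs) was above the 5.09 of CD8 T-gated cells. Both are single values of 1 library.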
